A study of Mus musculus with 8 samples.

Results

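Genes for the erythropoietin receptor, for proteins of the red cell membrane and for 2 carbonic anhydrases were followed in mouse haemogenic endothelium. The genes were Epor, Slc4a1, Epb42, Rhag, Ermap, Car2 and Car4. A list of 8 genes was drawn up with earlier results of these data in view, and each was looked up by symbol in the deposited count table of 41128 genes. In all, 7 were found, 6 by symbol and 1 (Epb42, which the table spells Epb4.2) by gene ID, and the other is not analysed here. The genes were chosen by measured values as well as by function, since levels and fold changes of 4OHT over EtOH in the Hdac2 lox/lox line were known when the list was made. In that comparison the 7 genes are therefore described, with no p-value printed for any of them.

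RNA was sequenced from 8 samples labelled as haemogenic endothelium, the endothelium that gives rise to the first blood cells, made from mouse ES cells of strain C57BL/6. Each of 4 groups held 2 libraries: Hdac2 lox/lox 4OHT, Hdac2 lox/lox EtOH, Hdac1 lox/lox 4OHT and Hdac1 lox/lox EtOH. In the Hdac2 lox/lox line the Hdac2 gene carries lox sites on both copies, and in the Hdac1 lox/lox line the Hdac1 gene does. These genes encode histone deacetylases, and the design names deletion of one or the other. The agent 4OHT (4-hydroxytamoxifen) is commonly used to switch on a tamoxifen-dependent Cre recombinase, and EtOH (ethanol) is its usual solvent. The labels name no Cre, no dose and no time, they do not say whether a line is 1 clone, and cells lacking lox sites but given 4OHT were not analysed here. Nothing in the labels tells whether the 2 libraries of a group came from separate cultures. The p-values thus reflect the spread between samples alone, and that spread may be technical.

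Total counts ran from 10215792 to 19552380 per library, and 3 counts, the limit that a count of 0 allows, corresponded to 0.150 to 0.287 CPM (counts scaled to library size with TMM factors, the unit of every level below unless a length scale is named). Hdac1 averaged 4.56 ± 0.794 CPM in Hdac2 lox/lox 4OHT, 7.31 ± 0.206 in Hdac2 lox/lox EtOH, 7.05 ± 0.0922 in Hdac1 lox/lox 4OHT and 5.69 ± 0.129 in Hdac1 lox/lox EtOH (SD, n = 2 each). Hdac2 stood at 149 ± 0.273, 158 ± 10.1, 146 ± 7.97 and 145 ± 4.11 CPM in the same groups. Which exons the lox sites flank is not stated, so these counts do not check the labels, and groups are named as labelled. The sum of 4 Y-linked genes, chosen after their values were seen, was 16.4 CPM in Hdac2 lox/lox EtOH replicate 2, against 1.01 to 1.42 CPM in the other libraries of that line. The same sum was 74.9 to 102 CPM in the 4 libraries of the Hdac1 lox/lox line, so the odd library lay between the lines, and the lines differ in Y-linked expression throughout. For the 7 genes, comparisons that use this library are also given without it. Fold changes of other named genes are not, and the presence of other cells in it was not tested. The markers of haemogenic endothelium were present in every group: of 14 such genes none was listed at 0, and their summed level ran from 3363 to 8050 CPM.

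Erythropoietin, the hormone that drives red cell production, acts through its receptor EPOR on red cell precursors, which signals through the kinase JAK2 and the transcription factor STAT5. As these cells mature they build a membrane held to a spectrin skeleton through band 3, the anion exchanger encoded by Slc4a1, and through protein 4.2, encoded by Epb42. Rhag encodes the Rh-associated glycoprotein, a membrane channel at the core of the Rh complex, and Ermap encodes an erythroid membrane protein of the butyrophilin family. Carbonic anhydrases interconvert carbon dioxide and bicarbonate. CAR2 is the abundant cytosolic form of red cells and many other cells, and CAR4 is held to the outside of the membrane by a lipid anchor. The transcription factors GATA1 and KLF1 act on many erythroid genes.

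The bases before the annotated start are shown for Epor, Epb42 and Car4. These 3 were chosen because their levels were lower in Hdac2 lox/lox 4OHT than in Hdac2 lox/lox EtOH and their erythroid motifs differ. Sequences are from RefSeq on GRCm38.p6, and 5 of the 7 genes matched that table (Epor, Epb42, Rhag, Ermap and Car4). Capitals mark matches on either strand to the GATA motif (AGATAA, with A or T as its first letter) and to the KLF motif CCNCNCCC, and matches that overlap are run together. The Epor stretch lies at chr9:21963577-21963826 on the minus strand, that of Epb42 at chr2:121037073-121037127 on the minus strand, and that of Car4 at chr11:84957504-84957753 on the plus strand, each written 5′ to 3′ along its gene. For Epor and Car4 these are the 250 bases before the RefSeq start. The count table starts Epb42 further upstream than RefSeq does, so that 195 bases of its RefSeq window lie inside the gene as the table has it, and the other 55 are shown. Of the Rhag and Ermap windows, 23 and 16 bases lie inside the gene in this way.
Epor: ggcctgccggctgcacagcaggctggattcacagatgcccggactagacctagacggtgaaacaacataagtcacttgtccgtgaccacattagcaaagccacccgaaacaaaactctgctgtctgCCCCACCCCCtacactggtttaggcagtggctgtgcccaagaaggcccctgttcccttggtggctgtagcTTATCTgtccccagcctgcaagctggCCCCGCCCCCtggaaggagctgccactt
Epb42: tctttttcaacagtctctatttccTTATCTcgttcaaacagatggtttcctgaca
Car4: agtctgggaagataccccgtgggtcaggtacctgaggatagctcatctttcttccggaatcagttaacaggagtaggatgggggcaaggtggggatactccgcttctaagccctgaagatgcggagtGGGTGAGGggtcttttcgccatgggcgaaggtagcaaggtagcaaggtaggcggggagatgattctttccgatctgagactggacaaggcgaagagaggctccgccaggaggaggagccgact
Positions are counted from the RefSeq start. In Epor the GATA match lies 54 to 49 bases before the start, with overlapping KLF matches from 124 to 115 and from 28 to 19 bases before it. Epb42 holds a GATA match at 226 to 221 and no KLF match. Car4 holds a KLF match at 123 to 116 and no GATA match. Rhag and Ermap, whose sequences are not shown, hold a GATA match at 31 to 26 and at 67 to 62 bases before the start and no KLF match. Matches to the E-box CAGNTG, not in capitals, numbered 1 in Epor and 3 in the whole RefSeq window of Epb42. Across 32851 promoters of the same length, 16.6% held the GATA motif, 45.9% the KLF motif, 44.8% the E-box and 4.52% both GATA and KLF. These matches are descriptions of the letters and not evidence of binding.

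The 4 genes with the lowest ratios in the Hdac2 lox/lox line were Epor, Epb42, Car2 and Car4. Each was several-fold lower with 4OHT than with EtOH, and in each both 4OHT libraries lay below both EtOH libraries. Rhag was also lower in both 4OHT libraries, from few counts, and the band 3 gene Slc4a1 and Ermap overlapped between the groups. In bulk RNA, fewer cells of a type and less RNA per cell cannot be told apart.

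**Figure D1:**
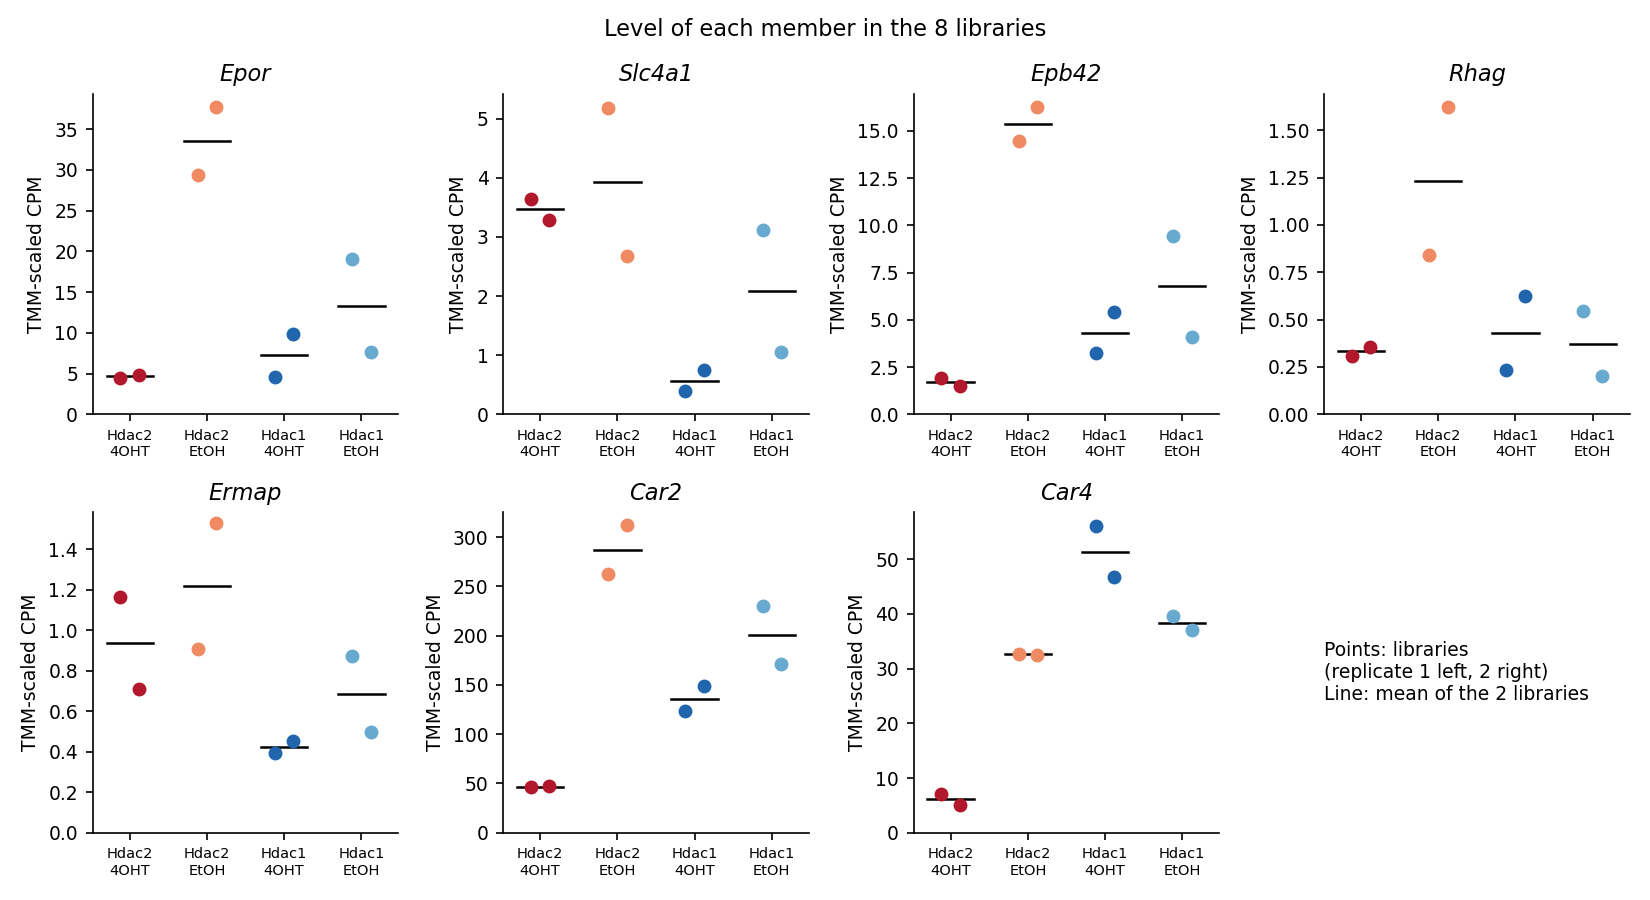
Level of each of the 7 genes in TMM-scaled CPM (y axis, from 0, own scale per gene) in the 8 libraries; points are libraries, replicate 1 to the left, and lines are means of 2. For Epor, Epb42, Car2 and Car4 the Hdac2 lox/lox 4OHT points lie below the Hdac2 lox/lox EtOH points, while Slc4a1 and Ermap overlap between these groups.

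Epor (chromosome 9, 21958899 to 21963576, mm10), the receptor gene, had 4.50 and 4.80 CPM in the Hdac2 lox/lox 4OHT libraries, against 29.4 and 37.7 CPM in the Hdac2 lox/lox EtOH libraries. The log2 fold change was -2.85 ± 0.51 (SE), with a 95% interval from -4.02 to -1.67, and the mean was 7.22 times as high with EtOH. Epor in the Hdac1 lox/lox line had 4.63 and 9.85 CPM with 4OHT and 19.1 and 7.60 CPM with EtOH, so the groups overlapped. One Hdac1 lox/lox EtOH library thus held 2.51 times the level of the other.

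Among the membrane genes, Epb42 (chromosome 2, 121017891 to 121037072), the gene of protein 4.2, had 1.94 and 1.51 CPM in the Hdac2 lox/lox 4OHT libraries, against 14.45 and 16.24 CPM with EtOH. Its log2 fold change was -3.14 ± 0.47 (SE; 95% interval -4.23 to -2.05), the most negative of the 7. With 4OHT the Hdac1 lox/lox line had 3.22 and 5.41 CPM, and with EtOH 9.44 and 4.10 CPM, again with overlap. Slc4a1 (chromosome 11, 102348824 to 102366203), the band 3 gene whose protein carries protein 4.2, had 3.65 and 3.29 CPM in Hdac2 lox/lox 4OHT and 5.19 and 2.67 CPM in Hdac2 lox/lox EtOH. That fold change was -0.19 ± 0.55 (SE) on the log2 scale, and its interval from -1.48 to 1.09 spans both directions. Slc4a1 in the Hdac1 lox/lox line had 0.39 and 0.74 CPM with 4OHT against 3.11 and 1.05 CPM with EtOH, from 5, 13, 57 and 21 counts. These low counts limit the precision of the Slc4a1 levels.

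Rhag (chromosome 17, 40811126 to 40840754), of the Rh complex, had 0.31 and 0.36 CPM with 4OHT and 0.84 and 1.62 CPM with EtOH in the Hdac2 lox/lox line, from 4, 4, 13 and 17 counts. Its log2 fold change was -1.83 ± 0.73 (SE; 95% interval -3.53 to -0.14). Rhag reached the filter level of 0.687 CPM in the 2 Hdac2 lox/lox EtOH libraries and in no other, so it entered the test through the group where it was high. Its Hdac1 lox/lox values were 0.24 and 0.63 CPM with 4OHT and 0.55 and 0.20 CPM with EtOH, from 3, 11, 10 and 4 counts. The lower value of each of these groups lay near the limit that a count of 0 allows. Ermap (chromosome 4, 119175457 to 119190011) had 1.16 and 0.71 CPM with 4OHT and 0.91 and 1.53 CPM with EtOH in the Hdac2 lox/lox line. A log2 fold change of -0.34 ± 0.52 (SE) for Ermap, with an interval from -1.54 to 0.86, spans both directions.

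Car2 (chromosome 3, 14886426 to 14900769) had the most counts of the 7 genes, 20259 over the 8 libraries. It stood at 46.1 and 47.3 CPM in Hdac2 lox/lox 4OHT, against 262 and 312 CPM in Hdac2 lox/lox EtOH, a log2 fold change of -2.62 ± 0.21 (SE; 95% interval -3.10 to -2.14). Car2 in the Hdac1 lox/lox line stood at 123 and 148 CPM with 4OHT and 230.0 and 171 CPM with EtOH, without overlap. Car4 (chromosome 11, 84957786 to 84966044) stood at 7.14 and 5.15 CPM in Hdac2 lox/lox 4OHT against 32.7 and 32.5 CPM in Hdac2 lox/lox EtOH, a log2 fold change of -2.40 ± 0.21 (SE; 95% interval -2.89 to -1.92). With 4OHT the Hdac1 lox/lox line held 56.1 and 46.6 CPM of Car4, above its EtOH libraries at 39.7 and 37.0 CPM. Car4 was thus lower with 4OHT in the libraries of one line and higher in those of the other.

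Of the 7 genes, 4 passed an adjusted p of 0.05 in the Hdac2 lox/lox line, all lower with 4OHT, where 36.1% of 14179 genes passed in either direction and 17.2% passed as lower. Since that comparison helped to choose the genes, nothing is read from the count. Likewise, 5 of 7 had non-overlapping groups with 4OHT lower, where 39.7% of all genes did, and 0 had 4OHT higher, where 38.6% did. At an unadjusted p under 0.05 there were 5 of 7, and 49.6% of all genes. The median log2 fold change was -2.40 over the 7 genes and -0.02 over all genes tested. Without Hdac2 lox/lox EtOH replicate 2, the library with the higher Y-linked sum, the log2 fold changes were -2.66 for Epor, -3.05 for Epb42, -2.49 for Car2 and -2.40 for Car4, and 0 of the 7 genes passed, as did 0 of all genes. In that fit Rhag had -1.32, Slc4a1 -0.58 and Ermap 0.06. Without Hdac2 lox/lox 4OHT replicate 2 the log2 fold changes were -2.89 for Epor, -2.97 for Epb42, -2.64 for Car2 and -2.19 for Car4. Without Hdac2 lox/lox EtOH replicate 1 they were -3.02, -3.22, -2.74 and -2.40. In both of these fits fewer of the 7 genes passed, and far fewer of all genes.

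Levels of different genes were compared per kilobase of exon. Car2 was the highest of the 7 in every group, at 19.3 CPM per kb in Hdac2 lox/lox 4OHT, 119 in Hdac2 lox/lox EtOH, 56.1 in Hdac1 lox/lox 4OHT and 82.9 in Hdac1 lox/lox EtOH. Car4 and Epor followed, at 3.13 and 2.34 CPM per kb in Hdac2 lox/lox 4OHT, 26.1 and 3.64 in Hdac1 lox/lox 4OHT, and 19.5 and 6.71 in Hdac1 lox/lox EtOH. In Hdac2 lox/lox EtOH, Epor at 16.9 and Car4 at 16.6 CPM per kb overlapped. Slc4a1, at 0.709 CPM per kb, stood above Epb42, at 0.319, in Hdac2 lox/lox 4OHT and below it in the other groups. Rhag and Ermap overlapped each other in Hdac2 lox/lox 4OHT and Hdac1 lox/lox EtOH. They were apart in Hdac2 lox/lox EtOH, at 0.527 and 0.230 CPM per kb, and in Hdac1 lox/lox 4OHT, at 0.184 and 0.0801.

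**Figure D2:**
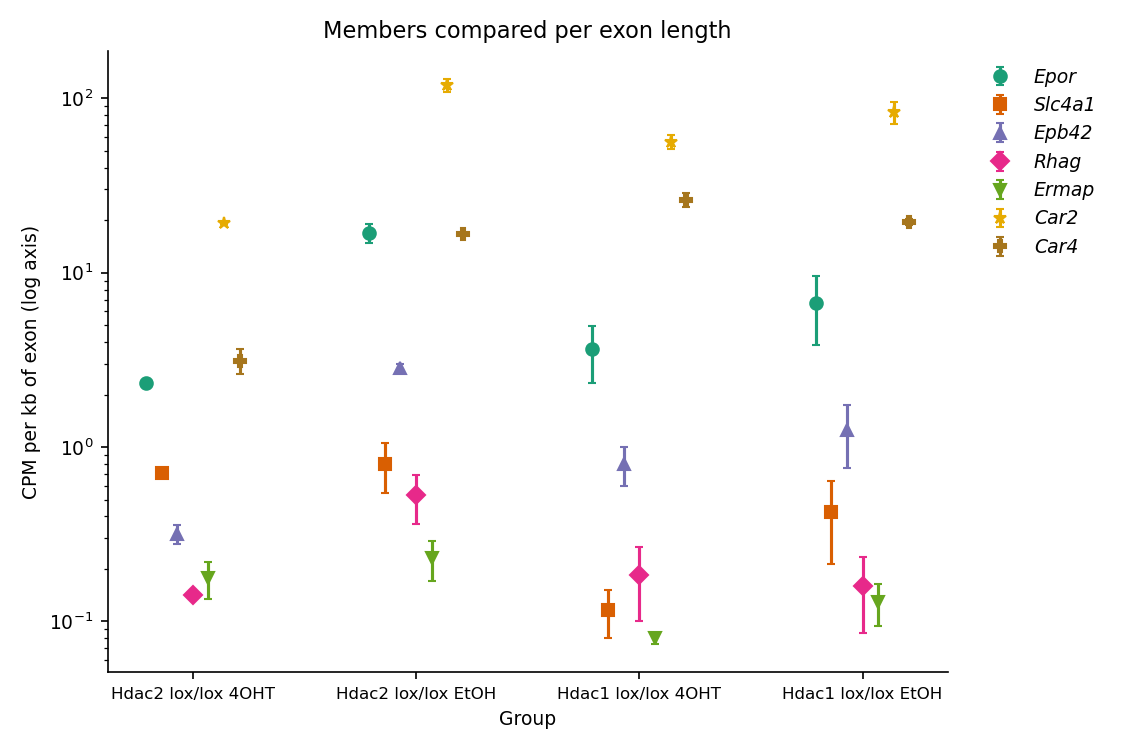
Level of the 7 genes per kilobase of exon (y axis, log scale, CPM per kb) in the 4 groups; symbols are means of 2 libraries and bars run from the lower to the higher library. Car2 lies highest in each group, and Slc4a1 lies above Epb42 in Hdac2 lox/lox 4OHT.

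Pairs of related genes were also set side by side within each library, per kilobase. Car4 was 19.1% and 13.4% of Car2 in Hdac2 lox/lox 4OHT and 15.4% and 12.8% in Hdac2 lox/lox EtOH, so the carbonic anhydrases stood in an overlapping proportion. It was 56.1% and 38.7% of Car2 in Hdac1 lox/lox 4OHT, against 21.2% and 26.6% in Hdac1 lox/lox EtOH, without overlap. Epb42 was 15.8% and 11.6% of Epor in Hdac2 lox/lox 4OHT, 18.0% and 15.8% in Hdac2 lox/lox EtOH, 25.5% and 20.2% in Hdac1 lox/lox 4OHT, and 18.1% and 19.8% in Hdac1 lox/lox EtOH. No test was run on these proportions.

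In the Hdac1 lox/lox line, whose libraries are separate from those of the Hdac2 lox/lox line, none of the 7 genes passed the test of 4OHT against EtOH (quasi-likelihood test of edgeR, Benjamini-Hochberg adjusted over all genes, as for every adjusted p-value here). None of the 14179 genes passed, 0.0%, and DESeq2 called 32 genes, none of the 7. At an unadjusted p under 0.05 there were 947 genes, 6.68%, and 2 of the 7, Car2 and Slc4a1. The log2 fold changes were -1.82 ± 0.65 (SE) for Slc4a1 (adjusted p = 0.73), -0.56 ± 0.20 for Car2 (adjusted p = 0.73) and -0.87 ± 0.47 for Epor (adjusted p = 0.79). Epb42 had -0.64 ± 0.42 (adjusted p = 0.82), Ermap -0.67 ± 0.56 (adjusted p = 0.87), Car4 0.42 ± 0.19 (adjusted p = 0.76) and Rhag 0.28 ± 0.73 (adjusted p = 0.97). The 95% interval for Epor ran from -1.96 to 0.23. Groups did not overlap for 3 genes lower with 4OHT (Slc4a1, Ermap and Car2), where 15.4% of all genes did so, and for Car4 as higher, where 15.8% did. The 2 Hdac1 lox/lox EtOH libraries differed from each other more than any other replicate pair (chi-square per degree of freedom 111, against 50.01 for Hdac1 lox/lox 4OHT, 17.8 for Hdac2 lox/lox 4OHT and 13.9 for Hdac2 lox/lox EtOH), and they stood 2.30 to 2.96 times apart in Epor, Epb42, Slc4a1 and Rhag. The Hdac1 lox/lox 4OHT libraries stood 2.13 times apart in Epor and 2.66 times apart in Rhag.

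**Figure D3:**
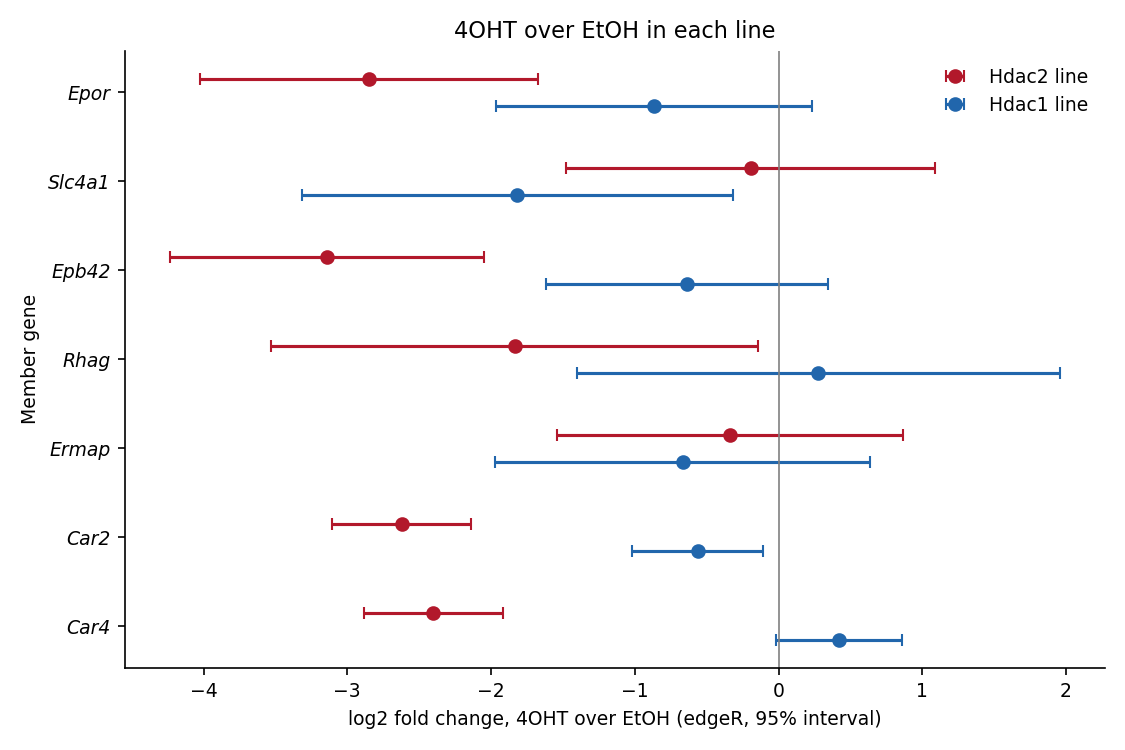
Log2 fold change of 4OHT over EtOH (x axis) for each of the 7 genes (y axis) in the Hdac2 lox/lox line (red) and the Hdac1 lox/lox line (blue); bars are 95% intervals of the edgeR fit. The Hdac2 lox/lox values of Epor, Epb42, Car2 and Car4 lie between -3.14 and -2.40. Those of Rhag, Ermap and Slc4a1 lie between -1.83 and -0.19, and the Hdac1 lox/lox values between -1.82 and 0.42.

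The difference between the lines in the effect of 4OHT was tested as an interaction. It contains the Hdac2 lox/lox comparison that helped to choose the genes, so it is not independent of that choice. Car4 passed, at a log2 difference (Hdac2 line minus Hdac1 line) of -2.82 ± 0.28 (SE, adjusted p = 0.034, 95% interval -3.47 to -2.17), and 4 of 14179 genes passed, 0.0282%, with 0.0141% in each direction. At an unadjusted p under 0.05 there were 4 of the 7 and 28.0% of all genes. The others were Sprr2b, Hand2 and Slc6a9, named because they were so few. Car2 had a difference of -2.06 ± 0.28 (adjusted p = 0.062), Epb42 -2.51 ± 0.63 (adjusted p = 0.086) and Epor -1.98 ± 0.68 (adjusted p = 0.12). Rhag had -2.11 ± 1.04 (adjusted p = 0.22), Slc4a1 1.62 ± 0.85 (adjusted p = 0.24) and Ermap 0.33 ± 0.76 (adjusted p = 0.79). DESeq2 called 1781 genes, 4 of the 7 among them. For Car4 the adjusted p was 0.0716 and 0.193 without Hdac2 lox/lox 4OHT replicate 1 and 2, 0.188 and 0.190 without Hdac2 lox/lox EtOH replicate 1 and 2, and 0.0678 and 0.0955 without Hdac1 lox/lox 4OHT replicate 1 and 2. Over all 13 alternatives it ran from 2.1e-12 to 0.193, while the log2 difference stayed between -3.08 and -2.61. Without Hdac2 lox/lox EtOH replicate 2 the differences of the other genes were -2.42 for Epb42, -1.93 for Car2, -1.79 for Epor, -1.60 for Rhag, 1.24 for Slc4a1 and 0.73 for Ermap, and 0 genes passed.

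Without 4OHT, the lines were compared through their EtOH libraries, which both 4OHT comparisons also use. None of the 7 genes passed, where 9.33% of genes did, 2.91% as higher in the Hdac2 line and 6.42% as lower. At an unadjusted p under 0.05 there were 4 of the 7 (Epor, Epb42, Rhag and Car2) and 33.0% of all genes. Rhag entered the test through the Hdac2 lox/lox EtOH libraries, so its place in this count and among the non-overlapping genes below is no support. Epor had a log2 ratio (Hdac2 line over Hdac1 line) of 1.33 ± 0.46 (SE, adjusted p = 0.096), from means of 33.6 ± 5.87 CPM in the Hdac2 line and 13.4 ± 8.13 CPM in the Hdac1 line (SD, n = 2 each). Epb42 had 1.18 ± 0.41 (adjusted p = 0.096), Car2 0.52 ± 0.20 (adjusted p = 0.11), Rhag 1.69 ± 0.67 (adjusted p = 0.13), Slc4a1 0.94 ± 0.56 (adjusted p = 0.27), Ermap 0.80 ± 0.51 (adjusted p = 0.31) and Car4 -0.23 ± 0.19 (adjusted p = 0.42). DESeq2 called 1 of the 7, Epor, and 2801 of all genes. Without Hdac1 lox/lox EtOH replicate 1 the log2 ratios were 2.14 for Epor, 1.91 for Slc4a1, 2.53 for Rhag and 1.24 for Ermap. More of the 7 genes then passed, though not Rhag or Ermap, and more of all genes. Over the 13 alternatives the log2 ratio ran from 0.69 to 1.90 for Epb42 and from 0.32 to 0.74 for Car2. For Car4 it ran from -0.29 to -0.16. Without Hdac2 lox/lox EtOH replicate 2, 4 genes passed in all, 0 of the 7 had an unadjusted p under 0.05, and the log2 ratios were 1.137 for Epor, 1.09 for Epb42, 0.38 for Car2, 1.17 for Rhag, 1.32 for Slc4a1, 0.40 for Ermap and -0.23 for Car4. Groups did not overlap for 5 genes as higher in the Hdac2 line, where 29.9% of all genes did so, and for Car4 as lower, where 30.3% did.

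Other genes of the same structures and pathways were read from lists drawn up with earlier results known. Of 19 erythroid membrane and skeleton genes, 17 were tested, and in the Hdac2 lox/lox line 2 rose and 6 fell, against 18.9% and 17.2% of all genes. Gypc, the glycophorin C gene, fell to 54.1 ± 3.71 CPM with 4OHT, against 115 ± 0.749 CPM with EtOH (log2 fold change -1.09 ± 0.18 SE, adjusted p = 0.0089). Cd47, the gene of a surface protein that restrains phagocytosis, rose to 144 ± 3.65 CPM with 4OHT, against 99.1 ± 1.06 CPM with EtOH (log2 fold change 0.53 ± 0.14 SE, adjusted p = 0.024). Epb41, the gene of skeleton protein 4.1, had 0.04 ± 0.24 (adjusted p = 0.92), and Mpp1, which encodes the membrane protein p55, -0.08 ± 0.19 (adjusted p = 0.76). Others that fell included Sptb (beta-spectrin), Tmod1 (tropomodulin), Xk and Icam4, and the water channel gene Aqp1 rose. These 5 are named because they passed, after their values were seen. Icam4 entered the test through the Hdac2 lox/lox EtOH libraries, where it was high, at 0.78 and 1.34 CPM. The list's median was -0.53, against -0.02 over all genes.

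Of 18 genes of erythropoietin receptor signalling, 17 were tested, and 4 rose and 0 fell in the Hdac2 lox/lox line, where 18.9% and 17.2% of all genes did. Those that rose, named after their values were seen, were Jak2, the receptor's kinase, at a log2 fold change of 0.93, Sos1, an activator of RAS, at 1.17, and Cbl and Socs3, which dampen cytokine signals, at 2.39 and 0.60. The most highly expressed members did not pass: Bcl2l1, which encodes the survival protein BCL-XL, at 0.18 ± 0.22 SE (adjusted p = 0.55), Sh2b3, an adaptor that restrains JAK2, at 0.45 ± 0.25 (adjusted p = 0.18), Stat5b at -0.15 ± 0.19 (adjusted p = 0.56) and the adaptor gene Grb2 at 0.09 ± 0.15 (adjusted p = 0.64). The median of the list was 0.09.

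Among the other carbonic anhydrases, 5 of 14 were tested, and 1 rose and 2 fell, against 18.9% and 17.2% of all genes. Car14, a transmembrane form, fell to 0.416 ± 0.0398 CPM with 4OHT, against 3.20 ± 0.0632 CPM with EtOH (log2 fold change -2.92 ± 0.40 SE, adjusted p = 0.0081). The mitochondrial form Car5b fell at -1.06 ± 0.31 (adjusted p = 0.033), and the cytosolic form Car13 rose at 0.60 ± 0.14 (adjusted p = 0.02). Car8, a relative without enzyme activity, had 68.8 ± 1.65 CPM with EtOH and a log2 fold change of -0.23 ± 0.23 (adjusted p = 0.43). Car1, the other cytosolic form of red cells, was among 3 carbonic anhydrase genes listed at 0 in both Hdac2 lox/lox 4OHT libraries. Car1 was too low to be tested, with 0.13 and 1.15 CPM in Hdac2 lox/lox EtOH. In the Hdac1 lox/lox line it had 0 and 0.23 CPM with 4OHT and 0.60 and 0.20 CPM with EtOH.

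Of the bicarbonate transporter family of Slc4a1, 5 of 9 others were tested, and 2 rose and 0 fell, against the same 18.9% and 17.2%. Slc4a4, a sodium bicarbonate cotransporter gene, rose to 22.4 ± 3.59 CPM with 4OHT, against 8.28 ± 0.713 CPM with EtOH (log2 fold change 1.44 ± 0.31 SE, adjusted p = 0.015), and Slc4a8 rose at 2.72 ± 0.57 (adjusted p = 0.014). Slc4a2, which encodes an anion exchanger found in many tissues, had 0.49 ± 0.23 (adjusted p = 0.12) and Slc4a7 0.09 ± 0.21 (adjusted p = 0.74). Of 13 Rh, transglutaminase and butyrophilin relatives, 4 were tested, and 0 rose and 2 fell, against the same shares of all genes. These small lists are descriptions only. F13a1, a transglutaminase of clotting, fell at -0.89 ± 0.27 (adjusted p = 0.038). Btn1a1, a butyrophilin gene, fell at -4.21 ± 1.23 (adjusted p = 0.034), from 0.388 and 0.178 CPM with 4OHT and 0.843 and 10.3 CPM with EtOH, where replicate 2 carries most of the difference. Tgm2 and Tgm1, transglutaminase genes, had -0.48 ± 0.51 (adjusted p = 0.48) and -2.13 ± 0.73 (adjusted p = 0.054). For the Hdac1 lox/lox line and for the difference between lines, none of these 5 lists held a gene that passed. Between the EtOH libraries 3 of their genes passed, among them Epb41, lower in the Hdac2 line at a log2 ratio of -1.10 ± 0.25 SE (adjusted p = 0.039), and F13a1, higher at 1.27 ± 0.27 (adjusted p = 0.034). The median log2 fold changes of the last 3 lists in the Hdac2 lox/lox line were -0.23 for the carbonic anhydrases, 0.77 for the transporters and -1.51 for the relatives. Without Hdac2 lox/lox EtOH replicate 2, where 0 of all genes passed, every list counted 0.

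**Figure D4:**
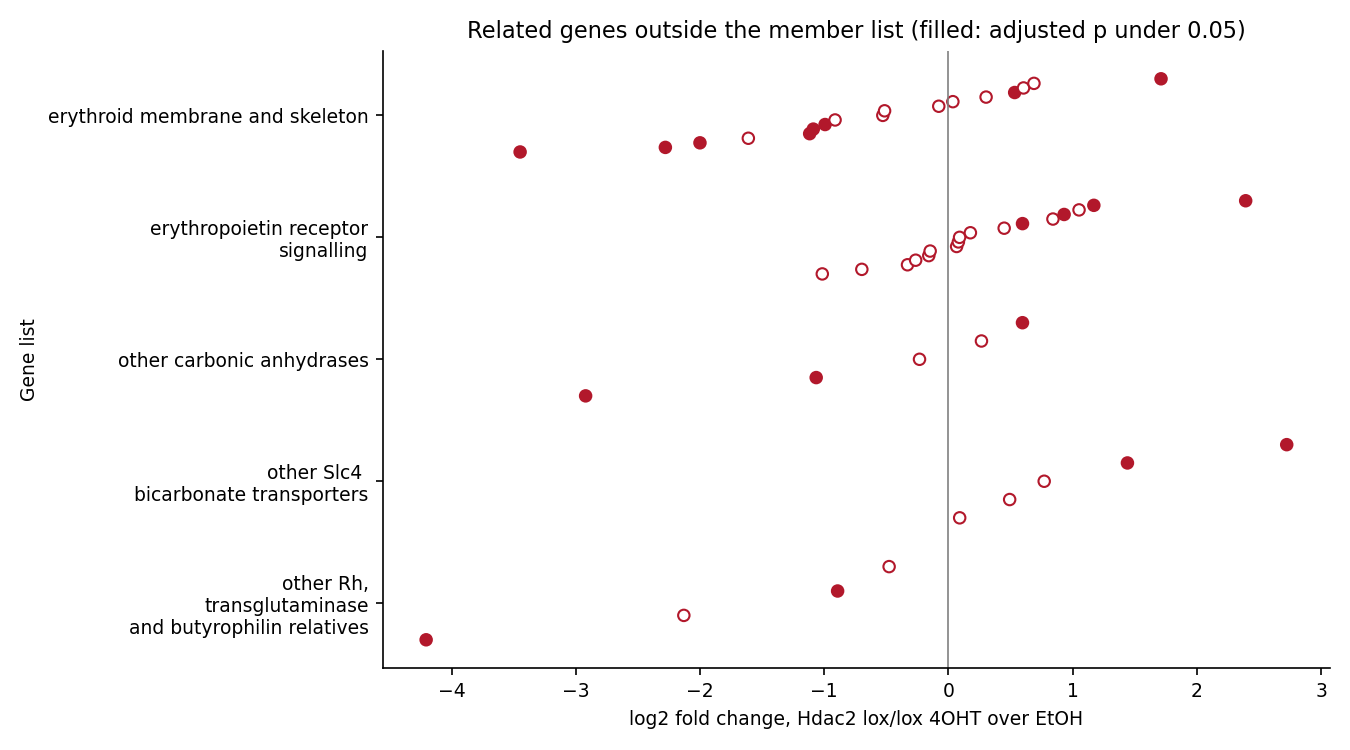
Log2 fold change of 4OHT over EtOH in the Hdac2 lox/lox line (x axis) for the tested genes of 5 lists of related genes (y axis); each point is a gene, filled where the adjusted p is under 0.05. The signalling list has 4 filled points above 0 and none below, and the membrane list has 6 below 0 and 2 above. Of all genes tested, 18.9% passed above 0 and 17.2% below.

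Markers of the cell types that the samples could hold differed between the same groups, and their part in the results was not tested. The summed level of 13 red cell markers ran from 255 to 403 CPM in Hdac2 lox/lox 4OHT and from 1761 to 1888 CPM in Hdac2 lox/lox EtOH. Within the Hdac1 lox/lox line it ran from 190 to 486 CPM with 4OHT and from 355 to 1072 CPM with EtOH. One of them, Tspo2, was listed at 0 in every library. Of 11 tested, 5 fell and 0 rose in the Hdac2 lox/lox line, against 17.2% and 18.9% of all genes. Hbb-bh1, an embryonic globin gene, fell to 113 ± 35 CPM with 4OHT, against 893 ± 61.9 CPM with EtOH (log2 fold change -2.98 ± 0.59 SE, adjusted p = 0.013), Gata1 fell at -3.33 ± 0.70 (adjusted p = 0.015) and Nfe2, a globin gene regulator, at -3.02 ± 0.48 (adjusted p = 0.0087). The embryonic globin gene Hba-x had -1.96 ± 0.72 (adjusted p = 0.065). Klf1 and Alas2, named after their values were seen, were the other 2 that fell.

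The summed level of haemogenic endothelium markers, carried by abundant endothelial genes, was 6148 to 8050 CPM in Hdac2 lox/lox 4OHT against 3363 to 3692 CPM in Hdac2 lox/lox EtOH, and 4862 to 6255 CPM in Hdac1 lox/lox 4OHT against 4475 to 6062 CPM in Hdac1 lox/lox EtOH. Of 14, 7 rose and 3 fell in the Hdac2 lox/lox line, against 18.9% and 17.2% of all genes. Among those that rose were the endothelial genes Cdh5 at 1.81 ± 0.31 SE (adjusted p = 0.0098), Pecam1 at 1.23 ± 0.24 (adjusted p = 0.012) and Kdr at 1.16 ± 0.25 (adjusted p = 0.016), while Tek, at 0.74 ± 0.30 (adjusted p = 0.084), did not pass. The 3 that fell, named after their values were seen, were the blood regulator genes Gfi1b at -2.70, Lmo2 at -2.01 and Tal1 at -1.18. Runx1 at -0.35 ± 0.23 (adjusted p = 0.25) and Kit at -0.53 ± 0.36 (adjusted p = 0.26) did not pass. Other blood cell markers summed to 86.5 to 100 CPM in Hdac2 lox/lox 4OHT and 194 to 233 CPM in Hdac2 lox/lox EtOH, and to 121 to 200 CPM in Hdac1 lox/lox 4OHT and 134 to 250 CPM in Hdac1 lox/lox EtOH. Of 9 tested, 4 rose and 2 fell in the Hdac2 lox/lox line, against 18.9% and 17.2% of all genes. Itga2b, the CD41 gene and the most abundant of them, fell to 45.4 ± 4.21 CPM with 4OHT, against 170.0 ± 25.8 CPM with EtOH (adjusted p = 0.0089), and Mpo fell at -2.90 ± 0.65 (adjusted p = 0.017). Itgam rose at 4.30 ± 0.76 (adjusted p = 0.011), as did Ptprc, Csf1r and Cpa3, named after their values were seen, and Spi1 had 0.37 ± 0.42 (adjusted p = 0.50). Ptprc, Csf1r and Cpa3 entered the test through the Hdac2 lox/lox 4OHT libraries, where they were high. Their place among the 4 that rose is therefore no support.

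**Figure D5:**
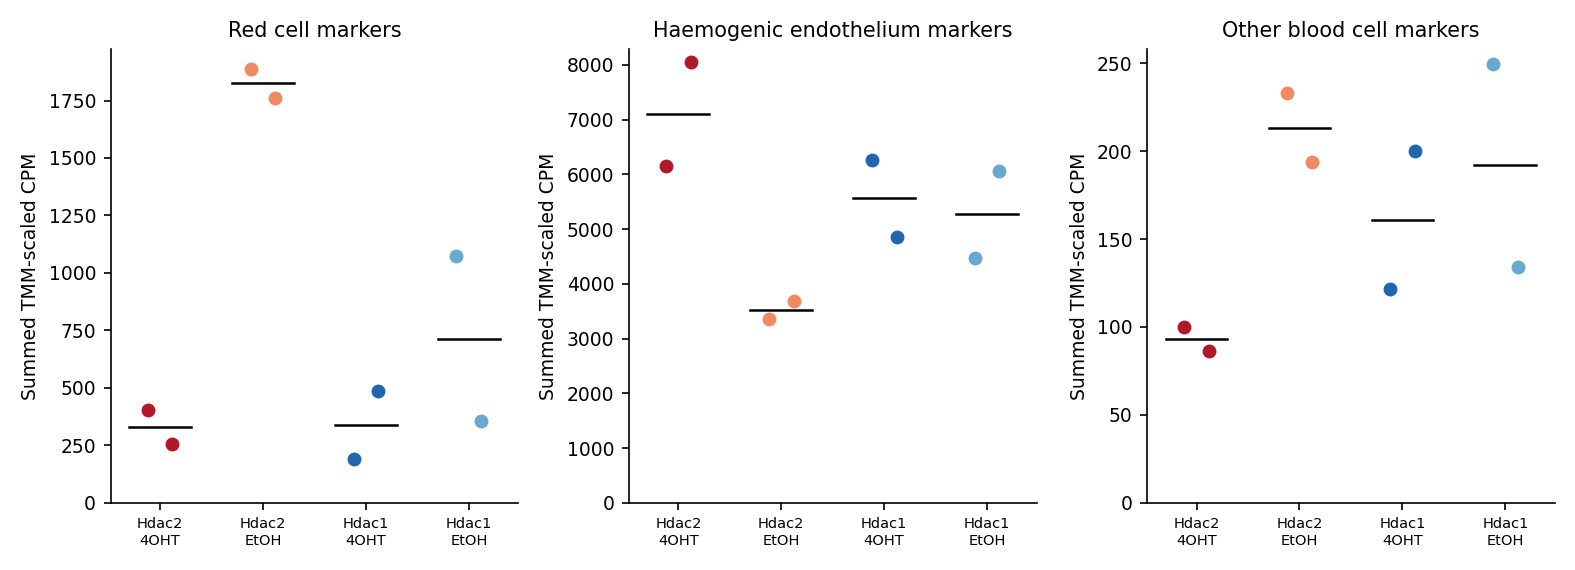
Summed TMM-scaled CPM (y axis, from 0) of red cell, haemogenic endothelium and other blood cell markers in the 8 libraries; points are libraries, replicate 1 to the left, and lines are means of 2. In Hdac2 lox/lox 4OHT the red cell sum lies below that of Hdac2 lox/lox EtOH and the endothelial sum lies above it.

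The 7 genes varied together to different degrees across the 8 libraries. Each gene's correlation with the mean profile of all 7 (log2 scale, scaled per gene, each gene included in the mean, so that the figures are inflated) was 0.99 for Epor, 0.97 for Epb42, 0.89 for Rhag, 0.84 for Car2, 0.62 for Ermap, 0.43 for Slc4a1 and 0.42 for Car4. Of 9907 other genes of at least 5 CPM, those whose profile was most like that mean over 8 libraries were Ddx20 (r = 0.998), Nudt19 (r = 0.994), Tmem218 (r = 0.993), Pgp (r = 0.991) and Snx5 (r = 0.989). These correlations describe 8 libraries in 4 groups that share their depth and scaling, and the 5 were taken as the highest of many. Pgp, for example, had 41.5 and 37.1 CPM in Hdac2 lox/lox 4OHT, against 101 and 116 CPM with EtOH in that line. It had 36.7 and 57.6 CPM in Hdac1 lox/lox 4OHT, against 76.7 and 41.9 CPM with EtOH.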

How the data were processed

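The authors deposited 1 table of raw read counts, whole numbers for each of 41128 genes in 8 libraries. Per the labels, libraries were made from 200 ng of total RNA with a strand-specific kit and 15 amplification cycles. Per the submitters' processing notes, the tools included Bowtie2 2.2.1 and SAMtools 0.1.19, and the genome build was mm10. The program that counted reads, its strand setting and its annotation are not named there. No member overlaps another gene of the table.

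Groups came from the sample titles. After filterByExpr 14179 genes remained, and counts were scaled by TMM and fitted with edgeR 4.0.16 (R 4.3.3) as 4 group means over 8 libraries with a robust quasi-likelihood test. P-values were adjusted by Benjamini-Hochberg over all 14179 genes at 0.05. Alternatives were DESeq2 1.42.0, other scalings, no filter, each line alone, a replicate block and each library left out. The lone library that remains is then assumed to vary like the other groups. The scripts were tested on simulated counts. Differences of same-numbered replicates correlated at 0.264 between the Hdac2 lox/lox groups and at -0.688 between the Hdac1 lox/lox groups. The second value could mean that numbers are crossed in that line, so the main fit did not pair samples. The replicate block did use the numbers as labelled, and its results carry this doubt.

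The members and all lists were chosen with earlier results of these data known. Named genes are the members, up to 4 tested genes of each list with the highest mean CPM, the 5 most like the members' mean profile, and Hdac1 and Hdac2. Others are named after their values were seen.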

Additional observations from a re-analysis of the deposited data

Results flagged for a closer look

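The difference between the lines in the effect of 4OHT on Car4, the gene of the membrane-anchored carbonic anhydrase, was picked out because the test of the difference itself passed. It was -2.82 ± 0.28 (SE) on the log2 scale, Hdac2 line minus Hdac1 line (edgeR's quasi-likelihood test, adjusted p = 0.034). Both Hdac2 lox/lox 4OHT libraries lay below both EtOH libraries of that line, as for 39.7% of all genes. Both Hdac1 lox/lox 4OHT libraries lay above both EtOH libraries of their line, as for 15.8% of all genes. The higher level in the Hdac1 lox/lox line did not pass by itself (log2 fold change 0.42 ± 0.19 SE, adjusted p = 0.76 by the same test). The difference contains the Hdac2 lox/lox comparison with which the gene was chosen, so this p is not independent evidence. The call was lost with the replicate block (adjusted p = 0.0738) and in 6 of the 8 fits that leave out 1 library (adjusted p from 0.0678 to 0.193), and the adjusted p ran from 2.1e-12 to 0.193 over all 13 alternatives.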

How the results depend on the processing

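The 7 genes gave 98 values under the alternatives in the Hdac2 lox/lox comparison, of which 86 kept direction and side of the threshold and 2 changed direction. In the Hdac1 lox/lox line 95 of 101 kept both and 3 changed direction. The 101 include the crossed pairing described below, from which all 3 values that changed side of the threshold came. In the difference between lines 73 of 91 kept both and 3 changed direction, and in the EtOH comparison 85 of 91 and 0. The cause was not tested except where stated.

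In the Hdac1 lox/lox line 0 genes were called, against 32 with DESeq2 and 4 with no filter. For the difference between lines 4 genes were called, against 1781 with DESeq2 and 1187 with no filter, and 1 member, against 4 with DESeq2 and 3 with no filter. For the EtOH libraries 1323 genes were called, against 2801 with DESeq2 and 2064 with no filter, and 0 members, against 1 with each. With the replicate block, 0 genes and 0 members were called for the difference, 184 genes for the EtOH libraries, and 3624 genes (against 5113) with 4 members in the Hdac2 lox/lox line. A crossed pairing of the Hdac1 lox/lox replicates, chosen after seeing the data, called 945 genes and 3 members.

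Leaving out 1 library at a time gave 0 to 6422 genes and 0 to 4 members in the Hdac2 lox/lox line, 0 genes in the Hdac1 lox/lox line, 0 to 3740 genes and 0 to 4 members for the difference, and 1 to 3871 genes and 0 to 4 members for the EtOH libraries. The highest counts for the last 2 comparisons came without Hdac1 lox/lox EtOH replicate 1. Direction changed under this alternative for low or overlapping genes, with log2 ranges of -0.58 to 0.37 for Slc4a1 and -0.74 to 0.0591 for Ermap in the Hdac2 lox/lox line, -0.63 to 1.13 for Rhag and -1.12 to 0.0869 for Epb42 in the Hdac1 lox/lox line, and -0.11 to 0.73 for Ermap in the difference. Upper quartile scaling moved the median of all genes by -0.134 in the Hdac2 lox/lox line and by -0.122 in the difference. Depth limits Rhag and Ermap, with 66 and 92 counts over all libraries.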
